A study of Homo sapiens with 9 samples.

Results

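In DMS273, a human small cell lung cancer cell line, 39 of 67140 genes in the count table stood at least 2-fold apart from control when both ATG7 and SQSTM1 had been knocked out and close to control when ATG7 alone had been. The set was chosen by expression in all 9 libraries. A gene had to reach a group mean of at least 5 CPM (reads of the gene per 1000000 reads of the library) in 1 of the 3 groups. With 0.5 CPM added, its log2 ratio of ATG7/SQSTM1 KO over control had to be at least 1 in size, and that of ATG7 KO over control at most 0.4. All 3 ATG7/SQSTM1 KO libraries had to lie on one side of the other 6 libraries, and SQSTM1 itself was left out. Of 12449 genes that reached the level, 201 passed the 2-fold limit, 114 of these also stood apart in all 3 libraries, and 39 met every condition, 31 of them higher and 8 lower in ATG7/SQSTM1 KO. The levels of these 39 genes therefore describe the choice and carry no test.

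The groups were cells given a control guide (sgSCR, genotype WT), ATG7 KO cells (sgATG7) and ATG7/SQSTM1 KO cells, each with 3 libraries, made with the CRISPRv2 vector and grown in RPMI 1640 with 10% fetal bovine serum. Total RNA was depleted of ribosomal RNA and sequenced with strand-specific libraries. The labels do not say whether a genotype was 1 clone or a pool, nor whether the 3 libraries came from separate cultures, so the spread between libraries may be technical. No library analysed here was labelled as a knockout of SQSTM1 alone, so the loss of SQSTM1 was measured here only on top of the loss of ATG7.

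ATG7 is the E1-like enzyme that activates the ubiquitin-like proteins of autophagosome formation. SQSTM1, also called p62, is a receptor that carries ubiquitinated cargo to autophagosomes and is itself degraded there, so it builds up as a protein when autophagy is blocked. It also acts as a scaffold in NF-kB signalling and binds KEAP1, the repressor of the stress factor NRF2.

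The library totals ran from 28675576 to 34222098 reads. ATG7 read 28.3, 26.7 and 27.1 CPM in control, 11.8, 9.75 and 12.8 in ATG7 KO and 11.3, 10.5 and 10.2 in ATG7/SQSTM1 KO. SQSTM1 read 383, 380 and 377 CPM in control, 381, 386 and 382 in ATG7 KO and 55.5, 49.3 and 52.0 in ATG7/SQSTM1 KO. Both targeted genes thus moved in the libraries whose labels name them. Of the cell type markers, NEUROD1 averaged 196 CPM in control and INSM1 90.1 CPM. The summed level of the 12 neuroendocrine markers was 873 to 913 CPM in control, 513 to 527 in ATG7 KO and 969 to 990 in ATG7/SQSTM1 KO. In edgeR 5 of the 12 rose and 4 fell in ATG7/SQSTM1 KO against control, where 19.0% of all 18847 genes tested rose and 19.6% fell. In ATG7 KO against control 1 rose and 11 fell, where 28.4% of all genes rose and 28.3% fell. The counts of other lists are read beside the same shares. The 8 blood markers summed to 3.40 to 10.3 CPM over all libraries and the 6 keratinocyte and airway markers to 2.74 to 9.33 CPM, both highest in ATG7 KO. The part of these cell type markers in the members' levels was not tested.

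The largest rises were in genes that were almost silent in control and in ATG7 KO. EPHA6, a receptor tyrosine kinase for membrane-bound ephrins, read 0.215, 0.244 and 0.129 CPM in control, 0.0336, 0.164 and 0.251 in ATG7 KO and 9.41, 8.70 and 7.80 in ATG7/SQSTM1 KO. These values are 4 to 7 reads a library in control and 243 to 322 in ATG7/SQSTM1 KO, a 44.0-fold ratio of means and a log2 change of 5.44 with a standard error (SE) of 0.27. CKM, the muscle form of creatine kinase, read 0.154, 0.349 and 0.291 CPM in control, 0.269, 0.164 and 0.282 in ATG7 KO and 6.57, 7.04 and 6.42 in ATG7/SQSTM1 KO, a log2 change of 4.66 (SE 0.24). Log2 changes with an SE come from edgeR's fit and are given as sizes only.

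To show the DNA before the start of the members at both ends of the list, the 250 bases upstream of the annotated start are printed for the 2 largest rises and the 2 largest falls among the members for which RefSeq's promoter table (build GRCh38.p14) held an entry. Capitals mark a match to 1 of the 8 motifs searched.
EPHA6, chr3:96814344-96814593, plus strand: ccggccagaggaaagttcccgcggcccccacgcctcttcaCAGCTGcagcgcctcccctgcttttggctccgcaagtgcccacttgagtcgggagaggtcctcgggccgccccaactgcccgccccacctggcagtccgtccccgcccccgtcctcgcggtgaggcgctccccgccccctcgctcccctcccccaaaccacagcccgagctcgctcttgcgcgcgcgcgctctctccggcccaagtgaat
CKM, chr19:45322876-45323125, minus strand: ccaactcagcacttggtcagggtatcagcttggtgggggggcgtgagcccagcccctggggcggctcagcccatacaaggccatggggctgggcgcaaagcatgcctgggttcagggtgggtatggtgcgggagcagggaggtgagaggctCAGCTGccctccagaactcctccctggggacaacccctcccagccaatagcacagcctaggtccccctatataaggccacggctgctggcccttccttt
FENDRR, chr16:86508861-86509110, minus strand: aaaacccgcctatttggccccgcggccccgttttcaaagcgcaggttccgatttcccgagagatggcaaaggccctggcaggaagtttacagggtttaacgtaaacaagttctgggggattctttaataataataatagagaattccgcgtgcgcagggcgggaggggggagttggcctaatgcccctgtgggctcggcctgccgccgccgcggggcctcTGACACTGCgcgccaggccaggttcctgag
ANPEP, chr15:89814853-89815102, minus strand: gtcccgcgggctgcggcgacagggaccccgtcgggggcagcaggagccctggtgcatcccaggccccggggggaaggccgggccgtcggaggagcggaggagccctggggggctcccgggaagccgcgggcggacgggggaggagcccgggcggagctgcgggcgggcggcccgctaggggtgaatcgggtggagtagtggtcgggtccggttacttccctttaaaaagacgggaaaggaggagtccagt
The capitals in EPHA6 and in CKM are CAGCTG, an E-box of the kind bound by basic helix-loop-helix factors. In FENDRR they match TGACNNNGC, the core of the antioxidant response element. ANPEP held no match in this window.

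Windows of 300 bases, from 250 before to 50 after a start, were found for 29 of the 39 members (43 windows, since some genes have several starts) and for 27305 genes in all. CAGCTG was in a window of 9 of 29 members (31.0%; exact 95% interval 15.3 to 50.8%), namely EPHA6, CKM, DMD, ZNF208, CA14, PRAME, LONP2, FTO and ADGRG2, against 21.1% of all genes. TGACNNNGC was in 3 (10.3% against 16.1%), the AP-1 motif TGANTCA in 2 (6.9% against 9.4%), the NF-kB motif GGGANTTTC in 0 (against 1.6%), and the cAMP element TGACGTCA in 0 (against 2.2%). The E-box CACGTG was in 4 (13.8% against 8.8%), the interferon element GAAANNGAA in 2 (6.9% against 9.9%) and the TATA box TATAAA in 5 (17.2% against 14%). Both strands were searched. The share over all genes lay within the members' interval for each of the 8 motifs, so the members' promoters were not told apart from other promoters by these letters at this number of genes.

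**Figure D1:**
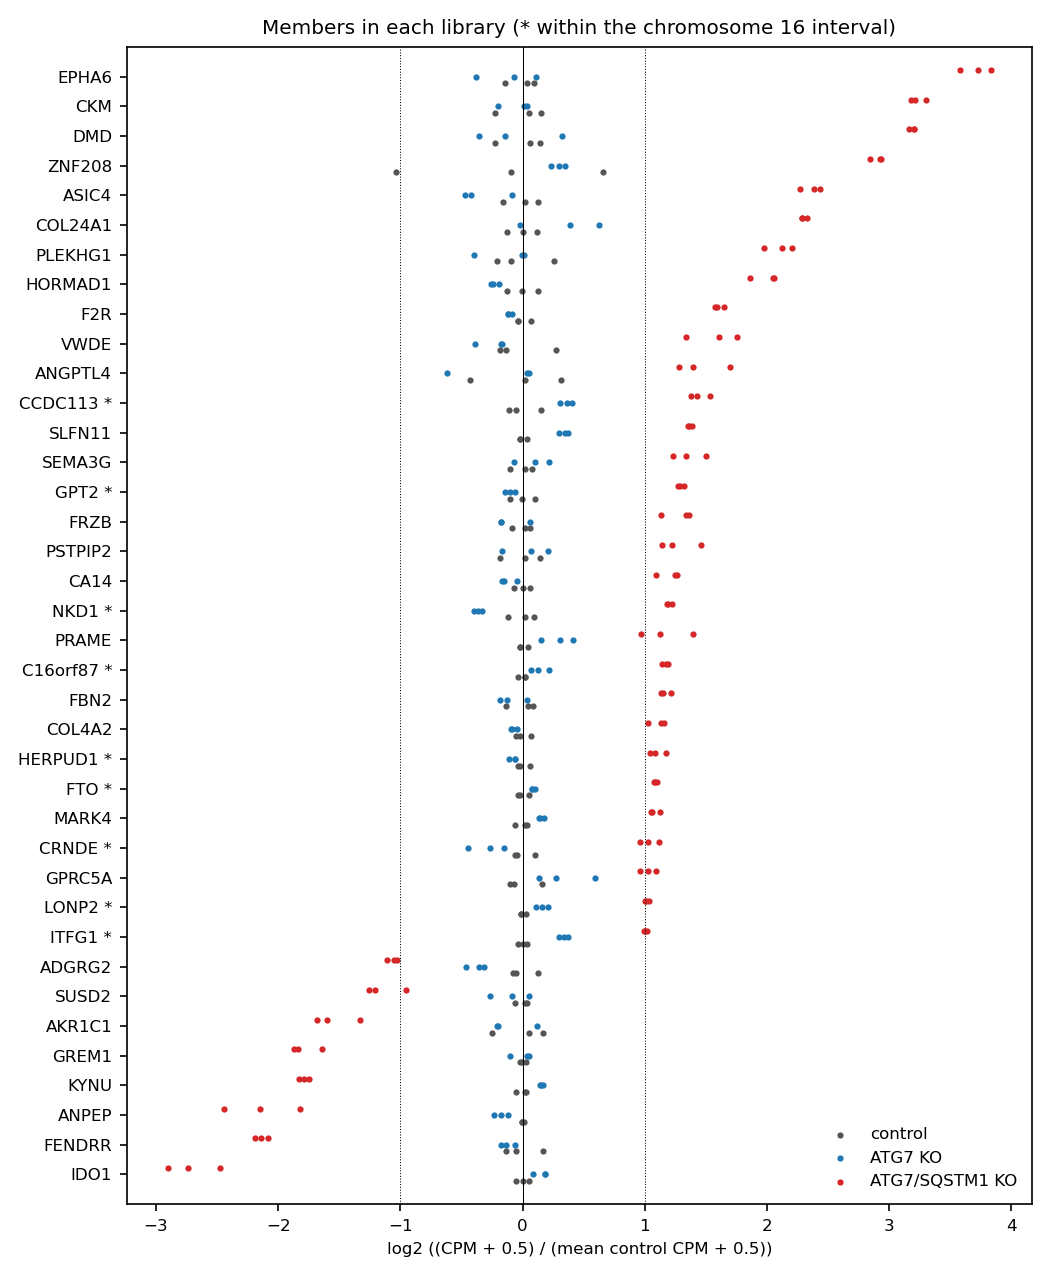
The members reported by name in each of the 9 libraries, as log2 of the CPM over the mean control CPM with 0.5 CPM added to both. Points are libraries and colours are groups. The ATG7/SQSTM1 KO points stand apart from the other 6 in every row, which the rule required. EPHA6 is at the top and IDO1 at the bottom.

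The members of the largest rises and falls belong to different kinds of gene. Dystrophin, DMD, links the actin cytoskeleton to the membrane glycoproteins of muscle. It read 1.04, 0.767 and 1.13 CPM in control, 0.839, 0.655 and 1.35 in ATG7 KO and 13.1, 12.8 and 13.1 in ATG7/SQSTM1 KO, a log2 change of 3.72 (SE 0.18). DMD and CKM are both known for their role in muscle, so the skeletal muscle markers are given beside them. Of 18 such markers, 5 (MYF5, MYH1, MYH2, MYL1 and TNNT3) had no read in any library. Their summed level was 26.9 to 27.8 CPM in control, 27.7 to 28.97 in ATG7 KO and 33.0 to 35.9 in ATG7/SQSTM1 KO. Of the 9 that could be tested in edgeR, 5 rose in ATG7/SQSTM1 KO against control and 0 fell. MYOD1, the myogenic master regulator, went from a mean of 1.03 to 2.47 CPM (log2 change 1.26, edgeR adjusted p = 0.00055), and MB, myoglobin, from 0.434 to 1.34 CPM (1.62, edgeR adjusted p = 0.000183). In ATG7 KO against control MYOD1 fell by 1.14 and MB rose by 0.88. Of 13 MEF2 factors and other muscle regulators tested, 3 rose and 1 fell. This list shares genes with the skeletal muscle markers, MYOD1 among them, so its rises are not a separate count. The part of these genes in the levels of CKM and DMD was not tested.

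The partners and relatives of DMD, CKM and EPHA6 were counted in 3 lists, and each count and median includes the member itself, which the rule chose. Of 13 genes tested of the dystrophin-glycoprotein complex, 5 rose and 2 fell in ATG7/SQSTM1 KO against control, with a median log2 change of -0.04 beside -0.01 over all genes tested. UTRN, the dystrophin relative utrophin, rose by 1.16 (edgeR adjusted p = 1.52e-05) but had risen by 1.55 in ATG7 KO as well. SGCB and SGCE, 2 sarcoglycans, fell by 0.41 and 0.32, and in ATG7 KO by 0.42 and 0.46. Of 7 genes tested for creatine synthesis, transport and creatine kinases, 2 rose and 1 fell. CKB, the brain form of creatine kinase, changed by -0.10 (edgeR adjusted p = 0.0506), and the 2 mitochondrial kinases CKMT1A and CKMT1B, which are near-identical copies whose reads cannot be assigned with certainty, by -0.09 and 0.03. Of 21 Eph receptors and ephrins tested, 9 rose and 3 fell, with a median of 0.24. EPHA7, a close relative of EPHA6 that did not reach 5 CPM, went from a mean of 0.0875 to 2.31 CPM (log2 change 4.67, SE 0.76, edgeR adjusted p = 0.00109), while its ATG7 KO mean was 0.233 CPM. EPHA2 rose by 0.71, and by 1.38 in ATG7 KO. EPHA3 rose by 0.32.

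The other receptors, channels and membrane proteins of the set moved in both directions. ASIC4, a member of the acid-sensing ion channel family, read 3.38, 2.69 and 3.11 CPM in control, 2.15, 2.06 and 2.85 in ATG7 KO and 18.8, 18.1 and 16.6 in ATG7/SQSTM1 KO (log2 change 2.54, SE 0.12). F2R, the thrombin receptor PAR1, read 19.36, 18.03 and 18.02 CPM in control, 16.9, 17.4 and 16.9 in ATG7 KO and 56.7, 56.0 and 58.9 in ATG7/SQSTM1 KO (1.63, SE 0.05). Its libraries varied little within a group, and control and ATG7 KO lay close together. GPRC5A, an orphan G protein-coupled receptor, changed by 1.10 (SE 0.12), and CA14, a membrane-bound carbonic anhydrase, by 1.30 (SE 0.11). Of the membrane proteins, 3 were lower. ANPEP, the ectopeptidase CD13, read 5.69, 5.68 and 5.76 CPM in control, 5.00, 5.20 and 4.77 in ATG7 KO and 0.643, 0.901 and 1.25 in ATG7/SQSTM1 KO (log2 change -2.61, SE 0.18). SUSD2, a sushi domain membrane protein, changed by -1.24 (SE 0.13) and ADGRG2, an adhesion G protein-coupled receptor, by -1.21 (SE 0.14).

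Among secreted and matrix proteins, 7 were higher and 1 was lower. COL24A1, a fibrillar collagen chain, read 1.04, 1.19 and 1.33 CPM in control, 1.71, 2.09 and 1.16 in ATG7 KO and 7.74, 7.94 and 7.74 in ATG7/SQSTM1 KO (log2 change 2.72, SE 0.18). COL4A2, a chain of basement membrane collagen, went from a mean of 63.5 to 137 CPM (1.12, SE 0.04). Its partner COL4A1, which shares a bidirectional promoter with it, changed by 0.67 (SE 0.04). FBN2, a fibrillin, changed by 1.21, FRZB, a secreted Wnt antagonist, by 1.42, SEMA3G, a secreted semaphorin, by 1.55, and VWDE by 1.79. ANGPTL4, a secreted inhibitor of lipoprotein lipase, read 24.5, 17.8 and 30.3 CPM in control, 24.9, 15.6 and 25.1 in ATG7 KO and 59.5, 64.4 and 79.6 in ATG7/SQSTM1 KO. Its libraries spread widely within each group, with control and ATG7 KO overlapping each other and ATG7/SQSTM1 KO above both (log2 change 1.49, SE 0.25). GREM1, a secreted antagonist of bone morphogenetic proteins, read 39.0, 37.9 and 37.5 CPM in control, 39.2, 39.7 and 35.5 in ATG7 KO and 10.1, 10.3 and 11.9 in ATG7/SQSTM1 KO (log2 change -1.82, SE 0.06). The 10 fibroblast markers summed to 203 to 221 CPM in control, 732 to 769 in ATG7 KO and 460 to 478 in ATG7/SQSTM1 KO, with COL3A1, LUM and COL1A1 giving most of the sum. Of 9 tested, 7 rose and 1 fell in ATG7/SQSTM1 KO against control, and 6 rose and 0 fell in ATG7 KO. In ATG7/SQSTM1 KO against ATG7 KO, 3 of the 9 were higher and 5 lower, where edgeR called 60.5% of all genes. PDGFRA averaged 2.31 CPM in control, 2.19 in ATG7 KO and 5.04 in ATG7/SQSTM1 KO, DCN 7.57, 20.8 and 32.8 CPM, and POSTN 16.8, 80.0 and 121 CPM. COL1A1, COL3A1 and LUM were highest in ATG7 KO. In the same order of groups, COL1A1 averaged 19.9, 97.1 and 35.2 CPM, COL3A1 75.8, 321 and 151 CPM, and LUM 80.3, 220 and 109 CPM. Their part in the levels of the matrix members was not tested. In bulk RNA, fewer cells of a type and less RNA per cell cannot be told apart.

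Further members, which the rule chose as higher, have roles in meiosis, tumour antigens or the nucleus. HORMAD1, a meiotic chromosome protein expressed in some tumours, read 4.09, 4.53 and 3.72 CPM in control, 3.36, 3.40 and 3.54 in ATG7 KO and 16.2, 18.5 and 18.7 in ATG7/SQSTM1 KO (log2 change 2.12, SE 0.10). PRAME, a cancer-testis antigen, went from a mean of 2.35 to 5.90 CPM (1.33, SE 0.15). SLFN11, a helicase-like protein linked to sensitivity to DNA-damaging drugs in small cell lung cancer, read 22.4, 21.4 and 21.5 CPM in control, 27.8, 28.2 and 26.9 in ATG7 KO and 56.3, 57.7 and 56.5 in ATG7/SQSTM1 KO (1.39, SE 0.04). ZNF208, a zinc finger gene with many close relatives nearby, read 0.184, 1.71 and 0.809 CPM in control, 1.14, 1.28 and 1.22 in ATG7 KO and 10.1, 9.57 and 10.2 in ATG7/SQSTM1 KO. Its log2 change was 3.50 (SE 0.51), and 1 control library had only 6 reads. The change was 3.00 without control replicate 1 and 4.34 without control replicate 2. In ATG7 KO against control the log2 change of ZNF208 was 0.50 (SE 0.59), so its closeness to control there is also uncertain. Of the remaining members, PLEKHG1, a guanine nucleotide exchange factor, changed by 2.55, PSTPIP2, an adaptor of the actin cytoskeleton, by 1.48, and MARK4, a kinase of microtubule-binding proteins, by 1.10.

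**Figure D2:**
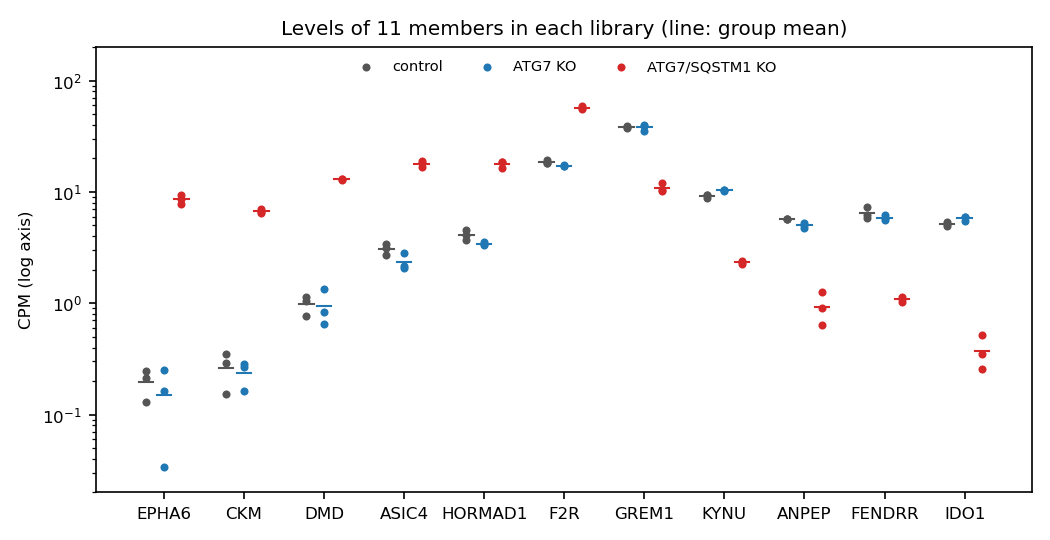
CPM of 11 members in each library, on a log axis, with a line at each group mean. The first 6 members rise in ATG7/SQSTM1 KO, up to EPHA6 at 9.41 CPM from 0.215 CPM in control replicate 1, and 5 fall, down to IDO1.

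Among the lower members, 2 are enzymes of the kynurenine pathway, which breaks down tryptophan. IDO1, the first and rate-limiting enzyme of that pathway in many cells, read 4.95, 5.16 and 5.37 CPM in control, 5.94, 5.92 and 5.52 in ATG7 KO and 0.351, 0.520 and 0.257 in ATG7/SQSTM1 KO. These are 148 to 166 reads in control and 8 to 15 in ATG7/SQSTM1 KO, a log2 change of -3.77 (SE 0.19). KYNU, kynureninase, read 9.40, 8.89 and 9.45 CPM in control, 10.5, 10.3 and 10.3 in ATG7 KO and 2.40, 2.32 and 2.25 in ATG7/SQSTM1 KO, a log2 change of -1.99 (SE 0.10). Of 8 genes tested in the tryptophan list, 3 rose and 4 fell in ATG7/SQSTM1 KO against control, and 2 of the falls are IDO1 and KYNU, which the rule chose for falling. Of the others, QPRT rose by 0.33, KYAT1 by 0.93 and AFMID by 0.19. KYAT3 fell by 0.23, as did WARS1, a tryptophanyl-tRNA synthetase outside the kynurenine pathway, by 0.11. TDO2, which catalyses the same first step as IDO1, changed by -0.05 but rose in ATG7 KO by 2.00. AKR1C1, an aldo-keto reductase induced by NRF2, went from a mean of 5.45 to 1.56 CPM (log2 change -1.80, SE 0.17). AKR1C2 is a near-identical copy of AKR1C1, so reads may be split between them. AKR1C2 changed by -0.91 (edgeR adjusted p = 0.0519) against control and rose by 1.62 in ATG7 KO. AKR1C3, a further relative, fell by 1.81, and by 0.68 in ATG7 KO. Of 26 NRF2 targets tested, 8 rose and 14 fell against control, with a median of -0.17, AKR1C1 included, and HMOX1 rose by 0.58 while SLC7A11 fell by 0.73. In ATG7 KO 17 of the 26 rose and 2 fell. Of 21 NF-kB targets tested, a list with no member, 3 rose and 10 fell in ATG7/SQSTM1 KO against control and 18 rose and 1 fell in ATG7 KO. Of 15 ubiquitin-binding and selective autophagy receptors, also with no member, 3 rose and 3 fell in ATG7/SQSTM1 KO against control.

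FENDRR, a long noncoding RNA, read 6.21, 7.32 and 5.82 CPM in control, 5.64, 5.83 and 6.15 in ATG7 KO and 1.08, 1.14 and 1.03 in ATG7/SQSTM1 KO (log2 change -2.56, SE 0.14). FOXF1, the transcription factor gene next to it, changed by -1.89 (SE 0.15) in ATG7/SQSTM1 KO against control, and by 0.68 in ATG7 KO, which kept it out of the set.

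All 39 members were called in ATG7/SQSTM1 KO against control, where edgeR called 38.6% of 18847 genes, and in ATG7/SQSTM1 KO against ATG7 KO, where it called 60.5%. The rule used both contrasts, so nothing is read from these counts. The limit of 0.4 on ATG7 KO over control still admits small changes. In ATG7 KO against control, where edgeR called 56.7% of genes, 15 of 39 members were called, 11 in the direction of the double knockout and 4 in the opposite direction. The 11 were COL24A1 (0.52), CCDC113 (0.42), GPRC5A (0.42), PRAME (0.39), SLFN11 (0.39), ITFG1 (0.38), ADGRG2 (-0.37), LONP2, MARK4, C16orf87 and FTO. Among the 4 were CRNDE (-0.25), NKD1 (-0.34) and ASIC4 (-0.335). The 39 log2 changes ran from -0.37 in ADGRG2 to 0.52 in COL24A1. The other 24 were not called, which does not show that they were unchanged. "Changed only in the double knockout" thus holds for these genes as a limit on the size of the change, and 15 of them also passed the test with ATG7 alone knocked out.

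**Figure D3:**
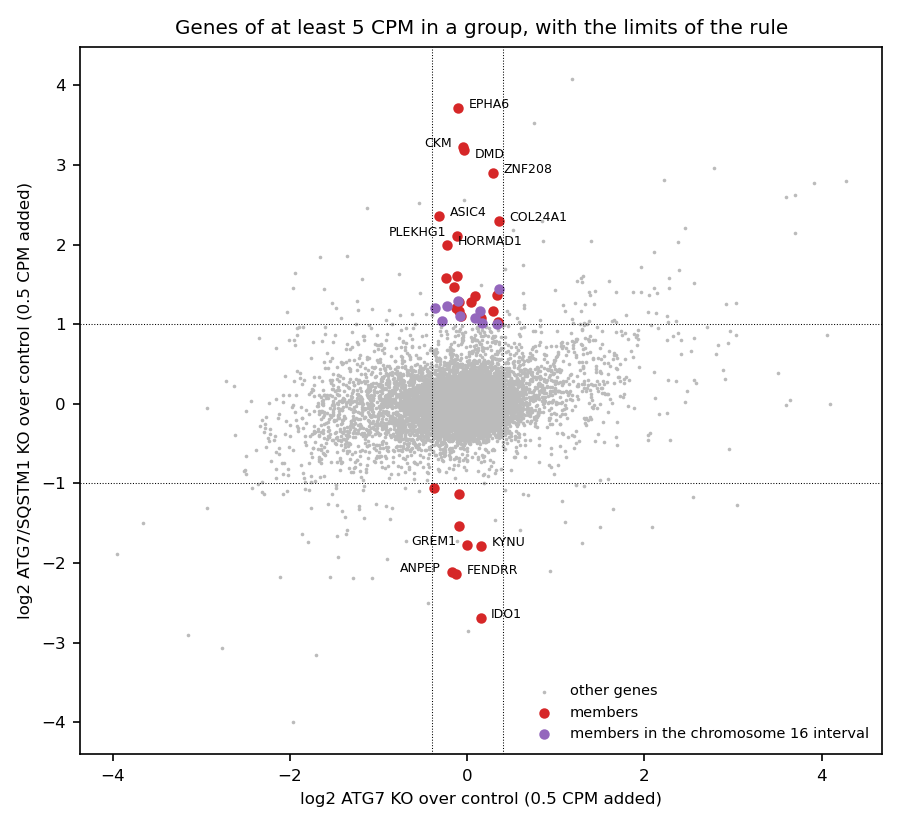
Log2 of ATG7/SQSTM1 KO over control against log2 of ATG7 KO over control for genes of at least 5 CPM in a group, with 0.5 CPM added. Dotted lines are the limits of the rule, red points the members, and purple points the members in the interval on chromosome 16. Grey points beyond the horizontal lines within the vertical pair did not stand apart in all 3 libraries, except SQSTM1, which was left out.

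The members' genome positions, which the rule did not use, were uneven. Of the 31 higher members, 10 lay on chromosome 16 between positions 46796607 and 58283836 (GRCh38, GENCODE release 29), a stretch of 11.49 Mb. Those reported by name were, in order along the chromosome, C16orf87, GPT2, ITFG1, LONP2, NKD1, FTO, CRNDE, HERPUD1 and CCDC113. Chromosome 16 held 592 of 12423 annotated genes of at least 5 CPM (4.77%). The stretch was delimited after the positions were seen, and its ends are those of its first and last member. These members serve different functions. GPT2 is a mitochondrial alanine transaminase, LONP2 a peroxisomal protease, FTO an RNA demethylase, HERPUD1 a protein of endoplasmic reticulum stress and degradation, NKD1 an inhibitor of Wnt signalling, and CRNDE a long noncoding RNA.

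Across the stretch, most genes that were not members were also higher in ATG7/SQSTM1 KO. GPT2 read 89.6, 83.3 and 96.4 CPM in control, 85.8, 81.3 and 83.7 in ATG7 KO and 220, 225 and 218 in ATG7/SQSTM1 KO, while FTO read 65.3, 62.1 and 61.3, then 66.3, 67.5 and 66.5, then 135, 133 and 134 CPM. Around these, the other 56 genes of the stretch had a median log2 of ATG7/SQSTM1 KO over control of 0.81 (quartiles 0.70 and 0.92). Of these, 55 of 56 were above 0, against 5931 of all 12423 annotated genes of at least 5 CPM. In 47 of the 56 (83.9%) all 3 ATG7/SQSTM1 KO libraries lay above the other 6, against 17.5% of all annotated genes of at least 5 CPM. The 12357 genes outside the stretch had a median of -0.01 (quartiles -0.152 and 0.135). They include genes just beyond its ends, where the rise went on. Before the stretch, VPS35 had a log2 of 0.85, ORC6 0.98 and SHCBP1 0.495. After it, CNOT1 had 0.95, GOT2 0.85 and SLC38A7 0.35. In the 3 ATG7/SQSTM1 KO libraries the median of the stretch over the control mean was 0.81, 0.81 and 0.83, and in the 3 ATG7 KO libraries 0.17, 0.12 and 0.16. The median over all genes elsewhere stayed within 0.02 of 0 in each library. The members of the stretch lay 0.19 to 0.64 above its median, and 15 of all 66 genes of the stretch, its 10 members included, were at least 2-fold higher, where 1.01% of all annotated genes of at least 5 CPM were. With the stretch's median subtracted from its genes, 0 of its 10 members stayed at 2-fold or more and the higher members numbered 21. DNA copy number was not measured in these libraries, and a difference between the cultures or clones cannot be told apart from the genotype.

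**Figure D4:**
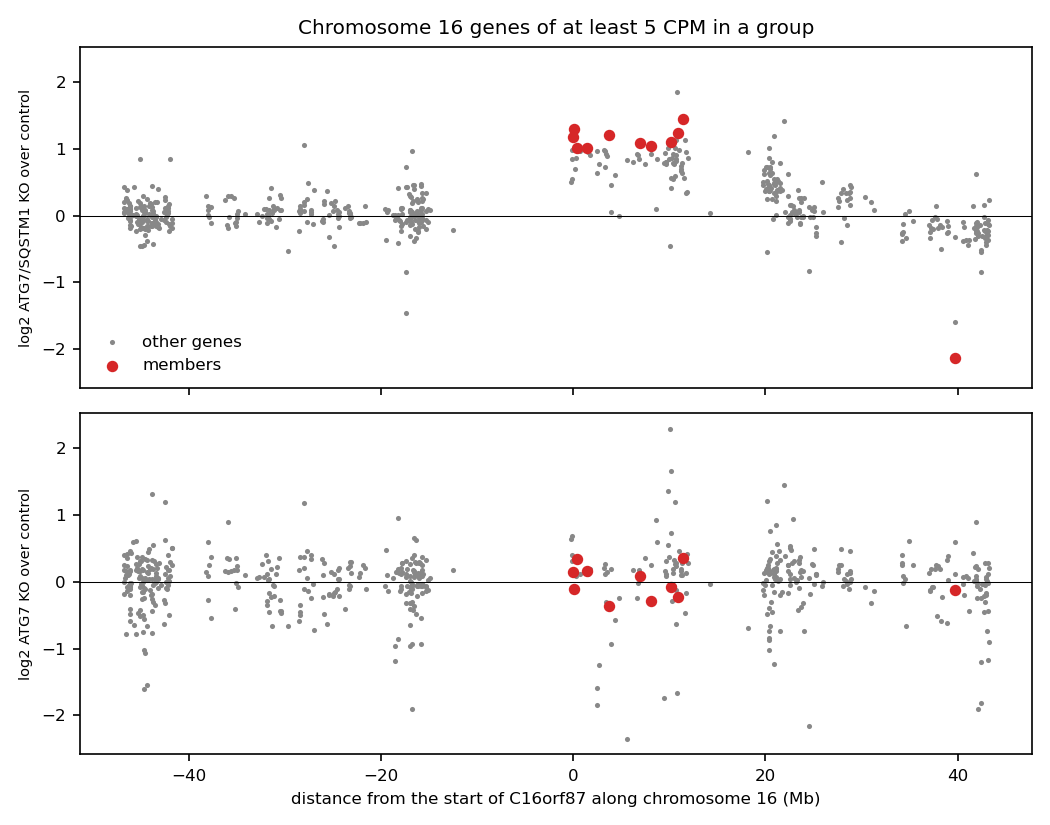
Log2 of ATG7/SQSTM1 KO (upper) and of ATG7 KO (lower) over control for genes of at least 5 CPM, by distance along chromosome 16 from the start of C16orf87. Members are red. The upper points form a step at a median near 0.81 that covers 0 to 11.49 Mb, with the members along its upper side. These limits are the first and last member, and genes just beyond them are raised as well. The lower points show no step of that size.

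Windows of 5 Mb with at least 8 genes of at least 5 CPM numbered 489, with the mitochondrial genome counted as 1. The 3 windows of chromosome 16 from 45 to 60 Mb ranked 1, 2 and 3 by median log2 of ATG7/SQSTM1 KO over control (0.93, 0.89 and 0.80). The next window was on the X chromosome, with 0.46. Window medians include members, which the rule chose by this ratio. In the 3 highest windows 4 of 16, 3 of 19 and 3 of 41 genes were members, so their ranks are a description. The short arm side of chromosome 16 had a median of 0.02. FENDRR, at 86 Mb on chromosome 16, lay in a 2 Mb window of 9 genes, itself included, with a median of -0.37. ADGRG2, one of the lower members, lay within that high X window: 6 genes within 1 Mb of it had log2 values from 0.25 to 0.94 while its own was -1.06. Distances were taken between the lower coordinates of genes. For DMD, also on X and on the minus strand, that is the end of the gene and not its start. Near that end 3 genes had log2 values from -0.26 to 0.67, with a median of 0.58. CKM and MARK4 lay end to end on chromosome 19 (45306414 to 45322977 and 45079288 to 45305283, on opposite strands), and 39 genes within 1 Mb of CKM had a median of 0.29. CA14 and HORMAD1 lay 0.441 Mb apart on chromosome 1, where 45 genes within 1 Mb of CA14 had a median of -0.23.

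**Figure D5:**
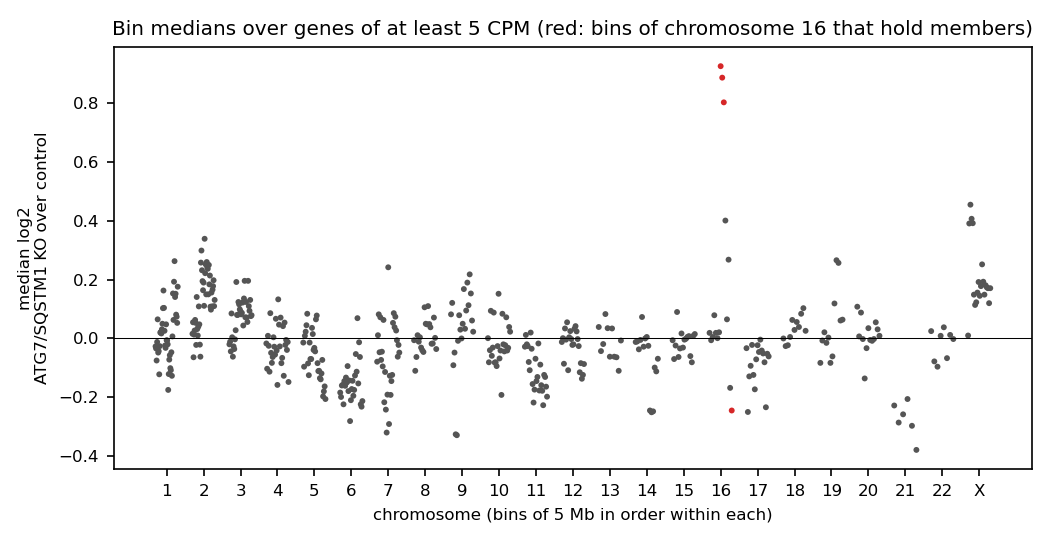
Median log2 of ATG7/SQSTM1 KO over control in windows of 5 Mb with at least 8 genes, in order along each numbered chromosome and X. The medians include members. The red points are windows of chromosome 16 that hold members, 3 of them highest of all, and the one that holds FENDRR is below 0.

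Several members overlap an expressed gene on the other strand, and whether the counting used strand is not given in the sources used here. ITFG1 overlaps PHKB, LONP2 overlaps SIAH1, FTO overlaps RPGRIP1L, COL4A2 overlaps COL4A1, ANGPTL4 overlaps RAB11B-AS1, DMD overlaps TBCAP1, and MARK4 overlaps several genes. MARK4 also overlaps the expressed genes BLOC1S3, GEMIN7 and PPP1R37 on its own strand, which counting by strand would not separate. Just inside the 2-fold limit were ITFG1 (log2 1.00) and LONP2 (1.01), and just outside it SCUBE1 (-0.99) and CNEP1R1 (0.98), the last of which is in the chromosome 16 stretch. Just inside the limit on ATG7 KO were ADGRG2 (-0.38) and NKD1 (-0.36), and just outside it DCLK1 (-0.40) and AASS (0.42).

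The rule was also applied to 6 libraries, and the genes so chosen were read in the held-out replicate of each group. With replicate 1 held out, 49 genes were chosen, of which 46 kept their sign and 38 stayed at 2-fold or more. With replicate 2 held out, 44 of 45 kept their sign and 34 stayed at 2-fold. With replicate 3 held out the counts were 49 and 36 of 51. The limit on ATG7 KO over control held in 33 of 49, 41 of 45 and 42 of 51 of these genes in the held-out libraries. The largest size of that log2 ratio there was 5.88, 0.62 and 3.81.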

How the data were processed

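The deposited table held raw read counts per gene, made by the authors; per the submitters' processing notes HISAT2 and build hg38 were used, while the program that counted the reads, its gene annotation and its use of strand were not given in the sources used here. Empty cells (362598) were read as 0. Of the table's columns, 1 was not used. RNA input was 400 ng with 12 cycles of amplification. Library totals give the depth, and replicates of a group differed by more than sampling noise (chi-square per degree of freedom 4.47 to 7.03). CPM were computed from these totals. Positions came from GENCODE release 29, which matched 58503 of 67140 identifiers. All genes were fitted in edgeR 4.0.16 (quasi-likelihood test, TMM scaling, filterByExpr with a count minimum of 10, Benjamini-Hochberg adjusted p under 0.05) with all 9 libraries in 1 model, on R 4.3.3; the test was checked on simulated data. DESeq2 1.42.0 and other settings were alternatives. Exact binomial intervals cover counting error only.

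Members, gene lists and markers were chosen with earlier results of these data known, so p-values of list genes are descriptive; a list of oncofetal RNA-binding genes held no member and was dropped after its values were seen. Named genes were the members with the largest changes or highest levels, those within 1 Mb of another and those in lists. They also included the nearest to each limit, and at most 4 further genes per list by smallest p. TDO2, WARS1, AKR1C2, PDGFRA, DCN, POSTN, COL1A1, COL3A1, LUM, CKB, CKMT1A, CKMT1B, MYOD1, MB and FOXF1 were named after their values were seen. So were VPS35, ORC6, SHCBP1, CNOT1, GOT2, SLC38A7, COL4A1, NOD2, MMP2, SLC12A3, ADGRG1 and MT2A. Of the members and markers, 2 are not reported here by name.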

Additional observations from a re-analysis of the deposited data

How the results depend on the processing

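The number of called genes stayed within 1.5 times of the reported value in each comparison under every alternative run (DESeq2, other scalings, other filters, 6 libraries only). With the replicate number as a block, edgeR called 7137 genes in ATG7/SQSTM1 KO against control, 11262 against ATG7 KO and 10564 in ATG7 KO against control. Same-numbered libraries did not deviate together (correlations of -0.217 to 0.071). With 3 libraries a group this cannot show whether they were handled together, and the labels do not say. The main model did not pair them. Leaving out 1 replicate gave 6361 to 7276, 10748 to 11428 and 9939 to 10660 called genes in these comparisons.

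The set's size depends on its limits. A level of at least 1 CPM gave 69 higher and 17 lower genes, and at least 10 CPM gave 2 lower. A limit of 0.2 on ATG7 KO over control gave 18 higher, and no limit gave 77 higher and 36 lower. Leaving out libraries gave 30 to 37 higher and 7 to 14 lower genes; the lower count rose to 14 without ATG7/SQSTM1 KO replicate 3, or without replicate 1 or replicate 3 of every group, and to 13 without replicate 2 of every group. Subtracting the median of the chromosome 16 stretch, a setting chosen after seeing the data, left 21 higher and 8 lower. In edgeR and DESeq2, 620 of 624 recomputed log2 changes of members in ATG7/SQSTM1 KO against control moved by less than the spread between libraries, 4 moved by more (CKM, EPHA6 and IDO1) and 0 reversed. ZNF208 ranged from 3.00 to 4.34. Members near 0 CPM in control rest on few reads, which limits the precision of their fold.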

Other observations

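Within the chromosome 16 stretch, some genes did not share its step. NOD2, a sensor of bacterial cell walls, had a log2 of ATG7/SQSTM1 KO over control of 0.05, MMP2, a matrix metalloproteinase, 0.10, and SLC12A3, a kidney sodium chloride transporter, -0.45. Others were above it but were kept out of the set by ATG7 KO. ADGRG1, an adhesion G protein-coupled receptor, read a mean of 31.9 CPM in control, 9.71 in ATG7 KO and 116 in ATG7/SQSTM1 KO, and the metallothionein MT2A 29.3, 75.7 and 59.4 CPM. On the same chromosome, 43 genes between 66 and 68 Mb had a median of 0.47. The lowest of the 489 windows of 5 Mb was at the end of chromosome 21, with a median of -0.38. The cause of these regional shifts was not tested.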
